A study of Macaca mulatta with 6 samples.

Results

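The genes described here are the components of 4 signalling systems that pattern embryos and maintain adult tissues: bone morphogenetic proteins (BMPs) with their SMAD transducers, WNTs, fibroblast growth factors (FGFs) and NOTCH receptors. Members were taken by gene symbol alone, from families of ligands (BMP, GDF, WNT, FGF), receptors (BMPR, FZD, LRP5, LRP6, FGFR, NOTCH), SMAD proteins and the matrix proteins SMOC1 and SMOC2. The rule found 92 genes, among 24186 genes with a symbol and 35432 genes in all. A family member with no matching symbol was not analysed here. In these systems a secreted or membrane-bound ligand binds a surface receptor, and the receptor passes the signal to the nucleus through SMADs (BMPs), beta-catenin (WNTs), kinase cascades (FGFs) or a cleaved part of the receptor itself (NOTCH). Plasma is free of cells, and RNA in it is known to travel inside vesicles or bound to proteins and lipoproteins.

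Total RNA was sequenced from the plasma of 2 rhesus macaques, called A and B, after treatment with proteinase K, RNase and DNase. A gradient gave an extracellular vesicle (EV) fraction, a lipoprotein fraction and a protein fraction, each with 1 library per animal, so 6 libraries in all. The labels record no age, sex, diet or stress exposure for either animal, and every library carries the same tissue label. Gene counts were used for each EV library and for a summed column of each animal, in which the authors added up libraries without stating which; 1 EV library per animal leaves no replicate within an animal.

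Depth set a hard limit on every value. Input reads ranged from 913091 to 3612560 per library and uniquely mapped reads from 16.35% to 24.26%. Gene counts came to 10397 for EV library A and 2842 for EV library B, and to 62794 and 54534 in the authors' sums. For a gene at 0, the largest share that depth allows was 0.0289% in EV library A, 0.106% in EV library B, 0.00478% of sum A and 0.0055% of sum B, since 0 counts allow up to 3. Each limit is 3 counts divided by the total of its column. Intervals given below are 95% exact binomial (Clopper-Pearson), and limits and intervals cover counting error only. Among vesicle markers, CD9 had 2 counts in each EV library and the other 6 had 0 in both; the 4 erythroid markers with a matching symbol and all 5 platelet markers were at 0 in both sums, and endothelial markers had a count in 4 of 5 genes in sum A and 3 of 5 in sum B.

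Transcripts of 27 of the 92 growth factor signalling genes (29.3%) were found in the sum of at least 1 animal. This 29.3% was 13.5 points above the share of genes with a symbol found in either sum. The other 65 had no count in any column. Tallies by family below also count a gene found in either sum, over few genes, and were not compared with that share. Shares by role within each sum, given further below, are set beside the background of that sum. In the sum of animal A, 20 genes had a count (21.7%), where 13.3% of all genes with a symbol had one. In sum B 23 genes had a count (25%), against 10.5%. Many symbols stand for several small RNA copies, and when only symbols used for 1 gene were kept, the background became 17.7% for A and 14% for B. In all, 16 genes were counted in both sums (17.4%), against 7.88% of genes with a symbol and 10.6% of those whose symbol is used once. In plasma RNA, release by fewer cells and less RNA per cell cannot be told apart. Which libraries each sum holds is not stated, so the sums of A and B were not read as 2 independent results. No test was run on these shares, because genes of a list are not replicates. Counts were not scaled for transcript length, so levels are not compared between genes. Length can also affect whether a gene has any count, and its part in the shares above was not tested.

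**Figure D1:**
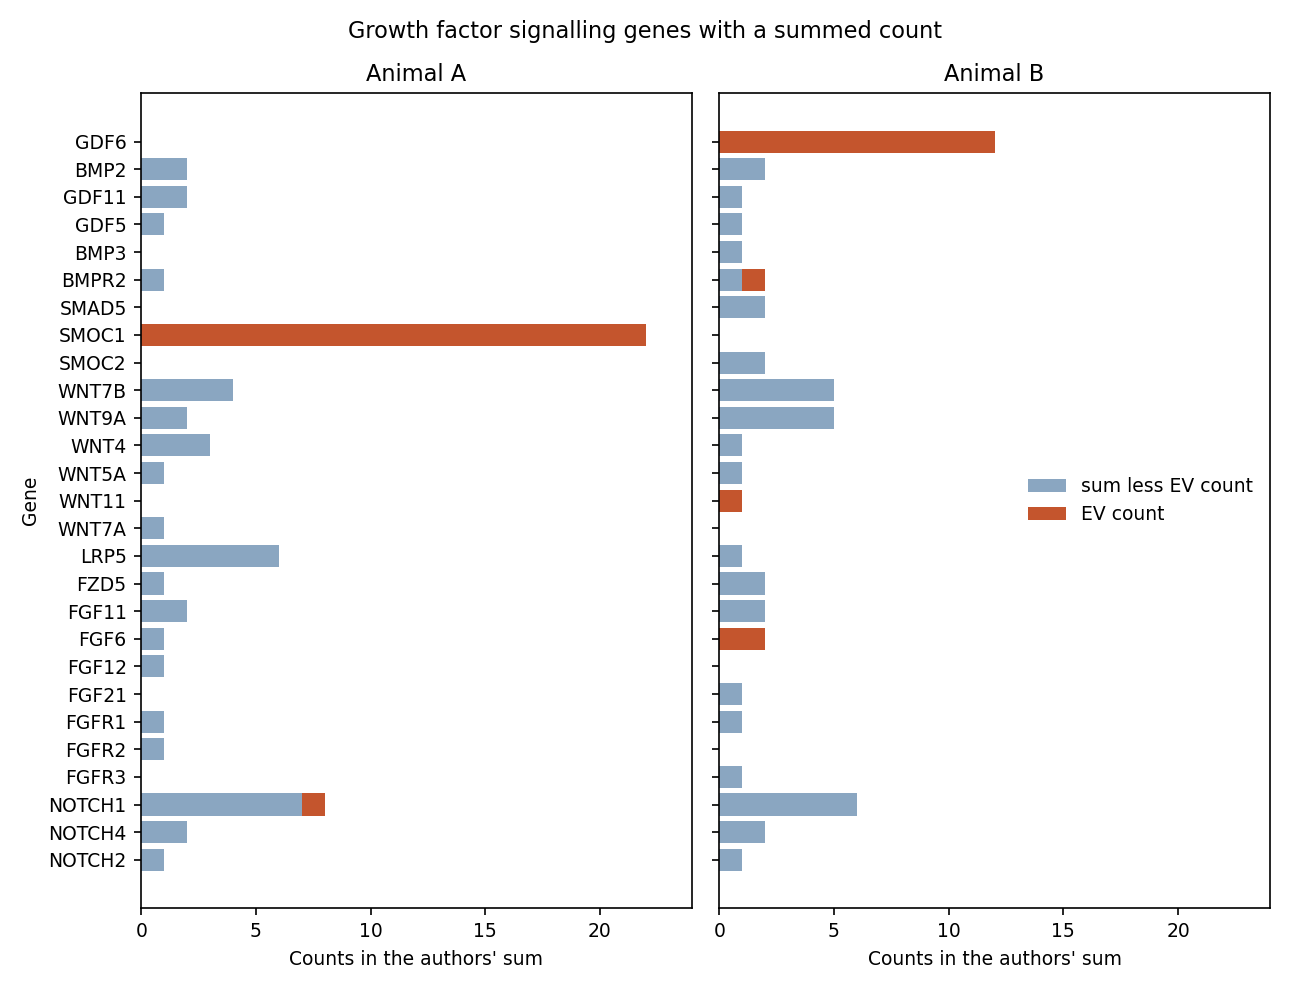
Counts in the authors' sum (horizontal axis, linear) for the 27 growth factor signalling genes with a count, in animal A (left) and animal B (right), ordered by role. Orange marks the EV count and blue the sum less the EV count. The bars of SMOC1 in A (22 counts) and GDF6 in B (12) are wholly orange, and NOTCH1 has 8 and 6.

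Nearly all of these levels were a few counts. Among genes with a count, the median was 1.5 counts in sum A and 2 in sum B, against 1 and 1 over all genes with a symbol. A single count was all that 10 of 20 genes had in A and 11 of 23 in B. At 3 counts or more, 5 genes were left in A (5.43%, against 3.42% of genes with a symbol), namely SMOC1, NOTCH1, LRP5, WNT7B and WNT4. In B 4 were left (4.35%, against 2.62%), namely GDF6, NOTCH1, WNT7B and WNT9A. Only NOTCH1 and WNT7B were on both of these short lists. The 92 genes made up 0.38% of the genes with a symbol and held 0.171% of their counts in A and 0.18% in B. Of all counts they held 0.1% (63 counts, 0.0771% to 0.128%) for A and 0.101% (55 counts, 0.076% to 0.131%) for B.

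The BMP ligands were represented by 5 of 19 genes. GDF6 (ENSMMUG00000065198), a BMP family ligand of joint and skeletal patterning, had 0 counts in sum A and 12 in sum B. EV library B also held 12 counts of it. BMP2, an inducer of bone formation, had 2 counts in each sum, and GDF5, a joint-forming ligand, had 1 in each. GDF11, which patterns the body axis, had 2 in A and 1 in B, and BMP3, which opposes other BMPs in bone, had 0 and 1. Of the ligands with a count, all but GDF6 thus differed by at most 1 count between the sums. The other 14 ligands, among them BMP4, BMP6, BMP7, GDF2 and GDF15, had no count. GDF2 encodes BMP9, a liver-made ligand of blood vessels, and GDF15 a stress-induced circulating hormone; their RNA was not detectable at this depth.

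Downstream of these ligands are the BMP receptors and SMADs. Of 3 BMP receptor genes only BMPR2, the type II receptor gene linked to pulmonary arterial hypertension, had counts, with 1 in sum A and 2 in sum B. BMPR2 had 1 count in EV library B. BMPR1A and BMPR1B had 0. Of 8 SMAD genes, SMAD5, which carries BMP signals, had 0 in A and 2 in B. The others, including SMAD1 and the shared partner SMAD4, had 0 in every column.

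SMOC1 (ENSMMUG00000017430) and SMOC2 encode secreted calcium-binding matrix proteins, and SMOC1 is known to restrain BMP signalling. SMOC1 had 22 counts in sum A and 0 in sum B, and EV library A also held 22. SMOC2 had 0 in A and 2 in B, with 0 in both EV libraries. SMOC1 was thus high in 1 EV library alone, as GDF6 was in the other. Presence in 1 EV library alone was common: 957 genes with a symbol had a count in either and 96 in both.

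The WNT ligands had counts in 6 of 19 genes. WNT7B, a ligand of lung and kidney development, had 4 counts in sum A and 5 in sum B. WNT9A, which acts in joint formation, had 2 and 5, and WNT4, a ligand of kidney and ovary development, had 3 and 1. WNT5A, the best known ligand of the branch that does not use beta-catenin, had 1 and 1. WNT7A, named after its values were seen, had 1 in A alone. WNT11 had 1 in B alone, with 1 in EV library B. Apart from WNT11, no WNT gene had an EV count. The 13 WNT genes at 0 included WNT1, WNT3A and WNT10B.

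Of 11 WNT receptor genes, 2 had counts. LRP5, the co-receptor gene whose mutations alter bone mass, had 6 counts in sum A (0.00956% of it, 0.00351% to 0.0208%) and 1 in sum B (0.00183%, 4.64e-05% to 0.0102%). These intervals overlap, and a difference in LRP5 between the sums was not tested. FZD5, a frizzled receptor gene, had 1 and 2. LRP6 and the other 8 frizzled genes had none.

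Of 21 FGF genes, 4 had counts. FGF11 and FGF12 encode intracellular proteins that bind sodium channels and are not secreted; FGF11 had 2 counts in each sum and FGF12 had 1 in A alone. FGF6, a muscle-associated ligand, had 1 in A and 2 in B, and EV library B also held 2. FGF21, a hormone made by the liver, had 1 in B alone. FGF14 was listed in the EV table with 0 in every column. The hormone genes FGF19 and FGF23 and the widely expressed FGF1 and FGF2 had 0. Each of the 3 FGF receptor genes had a count somewhere: FGFR1 had 1 in each sum, FGFR2 had 1 in A and FGFR3 had 1 in B.

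NOTCH genes were counted in 3 of 4 cases. NOTCH1 (ENSMMUG00000017022), a receptor gene of blood stem cell, T cell and endothelial development, had 8 counts in sum A (0.0127%, 0.0055% to 0.0251%) and 6 in sum B (0.011%, 0.00404% to 0.0239%), which overlap. NOTCH4, an endothelial receptor gene, had 2 and 2, and NOTCH2 had 1 and 1. NOTCH3, a receptor gene of vascular smooth muscle, had 0. Endothelial markers had a count in 4 of 5 genes in sum A and 3 of 5 in sum B, with VWF highest at 5 and 1. Lymphocyte markers had one in 2 of 5 and 1 of 5. The part of either cell type in the NOTCH counts was not tested.

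By role, 11 of 59 genes of the ligand families had a count in sum A (18.6%) and 13 in sum B (22%). Beside these stood 13.3% and 10.5% of genes with a symbol, and 17.7% and 14% of those whose symbol is used once. The ligands in A were thus close to the latter share. By family, A and B gave 15.8% and 26.3% for BMP and GDF ligands, 26.3% in each for WNT ligands and 14.3% in each for FGF ligands. In A the BMP and GDF ligands and the FGF ligands were thus below the 17.7% for symbols used once. In B the FGF ligands were close to the 14%. The WNT ligands were above these shares in both sums, as were the BMP and GDF ligands in B. These families include genes whose proteins are not secreted. FGF11 and FGF12 are among the 11 in A, and FGF11 is among the 13 in B. Among receptor genes there were 8 of 21 in each (38.1%), and among SMADs 0 of 8 and 1 of 8. Within the receptor genes, the 11 FZD and LRP genes gave 18.2% in each sum, close to the 17.7% in A. Ligands held 20 counts in A and 35 in B, with 0 and 15 in the EV libraries. GDF6 alone gave 12 of the 35 and 12 of the 15, and sums less EV counts were 20 in each animal. Receptors held 21 and 16, with 1 and 1 in the EV libraries. BMP1, a procollagen protease gene, and BMP2K, a kinase gene, fit the rule by name alone and had 0 in every column.

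**Figure D2:**
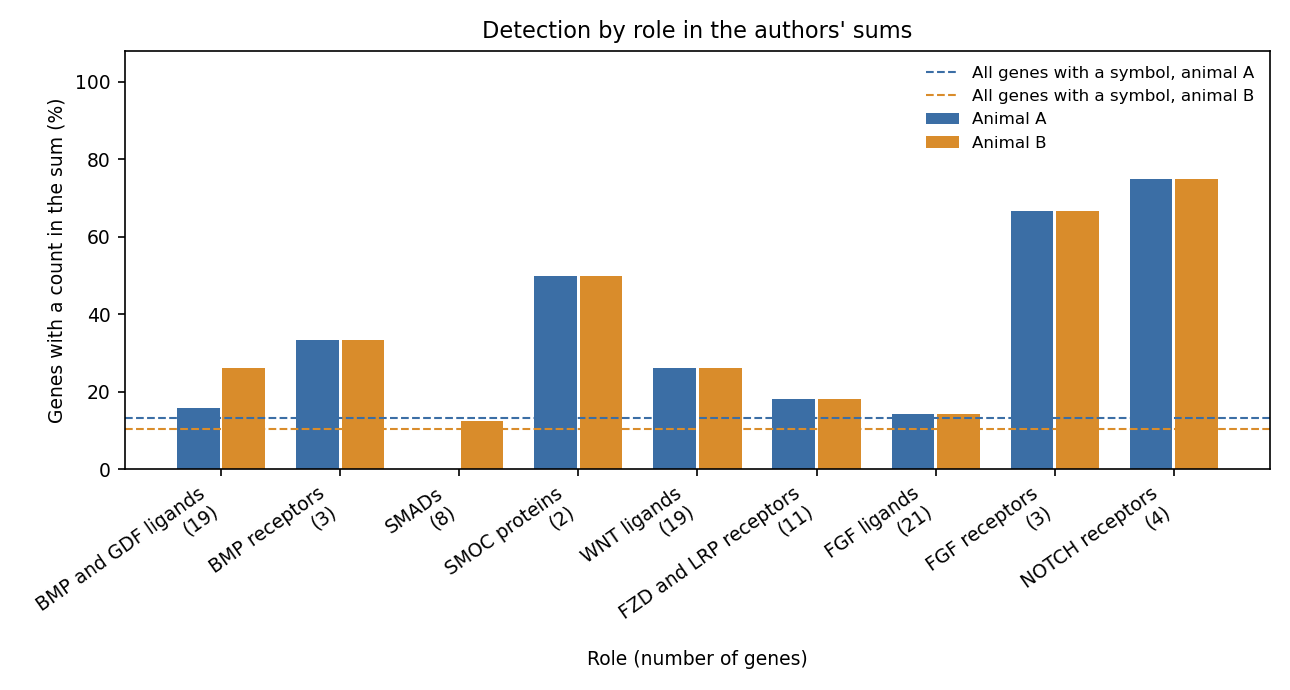
Percent of genes of each role with a count in the authors' sums (vertical axis), for animals A and B, with the number of genes in brackets. Dashed lines show all genes with a symbol, 13.3% in A and 10.5% in B. The higher shares for symbols used once, 17.7% in A and 14% in B, are not drawn. NOTCH receptors stand at 75% in both animals and SMADs at 0% and 12.5%, over 4 and 8 genes.

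In the vesicles themselves, 6 of the 92 genes had a count (6.52%), against 3.96% of genes with a symbol. None had one in both animals, where 0.397% of genes with a symbol did. EV library A held SMOC1 with 22 counts and NOTCH1 with 1, so 2 genes (2.17%), where 2.96% of genes with a symbol and 3.97% of those with a symbol used once had a count. The difference of -0.782 points from genes with a symbol turned to 0.458 points at 3 counts or more and to 0.167 points when library A was thinned to the depth of B. EV library B held GDF6 with 12 counts, FGF6 with 2, BMPR2 with 1 and WNT11 with 1, so 4 genes (4.35%), against 1.4% and 1.88%. SMOC1 held 0.212% of EV library A (0.133% to 0.32%), an interval that lies above the 0.106% that its 0 counts allow in EV library B. The exact interval for SMOC1 in EV library B reaches 0.1297%, only just below 0.1327% in A. GDF6 held 0.422% of EV library B (0.218% to 0.736%), an interval that likewise lies above the 0.0289% that its 0 counts allow in A. Both genes were singled out after their values were seen. These values compare 2 libraries rather than kinds of animal. The sources used here do not say whether PCR copies were removed, and copies would make these intervals too narrow.

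SMOC1 and GDF6 also set the EV share of the whole group. Set against the sums, EV counts came to 36.5% for A (23 against 63 summed counts, 24.7% to 49.6%). For B they came to 29.1% (16 against 55, 17.6% to 42.9%). Over all genes with a symbol, the EV counts came to 14.1% of the sums in A and 3% in B. The sums do not hold every EV count. In A 16 genes with a symbol and in B 11 had an EV count above their sum, by 30 and 17 counts in all. None of the 92 genes did. An EV share here is thus a ratio of an EV count to a sum, and the sum need not contain the EV library. Without SMOC1 and GDF6, both left out after their values were seen, the share of the growth factor genes was 2.44% in A (1 of 41 counts, 0.0617% to 12.9%) and 9.3% in B (4 of 43, 2.59% to 22.1%). Taking out the genes with most EV counts must lower the share, so these values are not compared with those of other genes. Counted by gene, 2 of the 20 genes with a count in sum A had an EV count (10%), against 21.8% of all such genes with a symbol. In B these were 4 of 23 (17.4%), against 12.9%. Of the whole EV library the group held 0.221% for A (0.14% to 0.332%) and 0.563% for B (0.322% to 0.913%), or 0.392% ± 0.242 (SD, n = 2).

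With the EV counts taken off, as if each sum held its EV library, 40 counts were left in A and 39 in B. They were spread over 24 genes. Of these genes, 8 had the same value in both animals (33.3%), where 31.3% of 3405 genes with a symbol did. They were BMP2, FGF11 and NOTCH4 with 2 and 2, and BMPR2, FGFR1, GDF5, NOTCH2 and WNT5A with 1 and 1. A further 11 differed by 1 count, NOTCH1 with 7 and 6 and WNT7B with 4 and 5 among them. The other 5 were LRP5 with 6 and 1, WNT9A with 2 and 5, WNT4 with 3 and 1, and SMAD5 and SMOC2 with 0 and 2 each. SMOC1, GDF6 and WNT11 had nothing left in either animal.

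**Figure D3:**
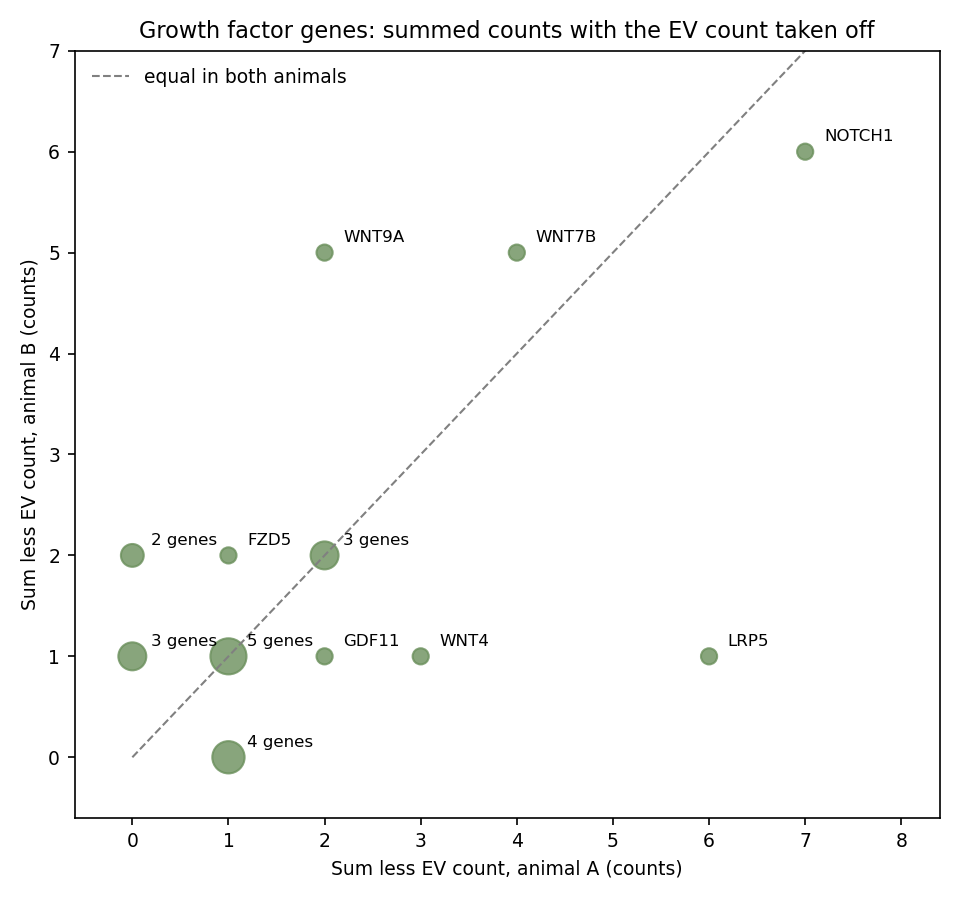
Summed count less EV count in animal A (horizontal) and animal B (vertical) for the 24 genes with such a count; the area of a point grows with the number of genes at that position. The dashed line marks equal values, which 8 genes share; LRP5 at 6 and 1 lies farthest from it.

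Other genes of these pathways were read from 7 lists, of which 144 of 147 symbols matched. A count was found for 46 of them in sum A (31.9%) and 33 in sum B (22.9%). Beside these stood 13.3% and 10.5% of all genes with a symbol, and 17.7% and 14% of those whose symbol is used once. In EV libraries A and B, 14 and 6 of the 144 had a count. There 2.96% and 1.4% of genes with a symbol had one, and 3.97% and 1.88% of those whose symbol is used once. Among WNT transducers 8 of 22 had a count in A and 5 in B; CTNNB1, which encodes beta-catenin, had 139 and 157, with 17 and 66 in the EV libraries, and AXIN2, a feedback inhibitor gene, had 4 and 2. Among WNT inhibitors and secretion genes there were 6 and 2 of 25, with NOTUM, which inactivates WNT ligands, and RSPO1, which raises WNT signalling, at 1 and 1 each. NOTCH ligands and effectors had 13 and 8 of 27, led by LFNG, a glycosyltransferase gene that tunes NOTCH, with 13 and 11, and the ligand gene JAG1 with 5 and 2.

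BMP antagonists had a count in 4 and 6 of 14 genes, with FST (follistatin) at 7 and 5 and NBL1, which also binds BMPs, at 0 and 3. TGFB and activin ligands and receptors had 9 and 7 of 21. AMH, the anti-Müllerian hormone gene, had 18 in each sum and 1 in each EV library, and ACVRL1, an endothelial receptor gene for GDF2, had 3 and 1. FGF co-receptors and adaptors had 2 and 2 of 19, each at 1 count, such as FGFBP3 in B and FGFRL1 in A. Hedgehog pathway genes had 4 and 3 of 16. The hedgehog co-receptor gene GAS1 had 39 in A and 5 in B, with 35 and 0 in the EV libraries, so it too was high in 1 EV library. The hedgehog receptor gene PTCH1 had 11 and 9, with 1 and 0 in the EV libraries.

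**Figure D4:**
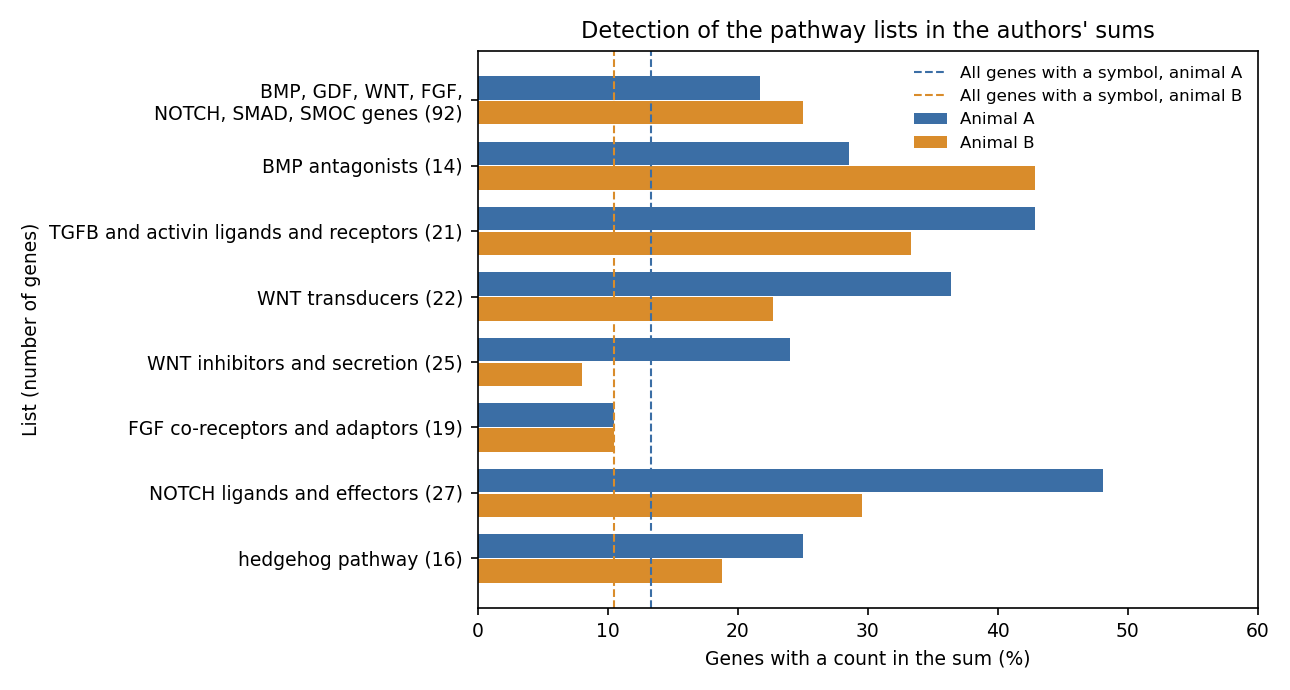
Percent of genes with a count in the authors' sums (horizontal axis) for the 92 growth factor signalling genes and 7 lists of other pathway genes, in animals A and B; dashed lines show all genes with a symbol. NOTCH ligands and effectors reach 48.1% in A and 29.6% in B, and FGF co-receptors and adaptors 10.5% in each.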

How the data were processed

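Libraries were prepared with a QIAseq UPXome kit from RNA purified with a Norgen kit, per the labels' protocols. The aligner was STAR, per the submitters' processing notes; its version, the genome build, the annotation, the counting step and any removal of PCR copies are not given in the sources used here. The authors deposited raw counts per gene for the EV libraries and counts per gene summed over unstated libraries of each animal, neither normalized. Mapped reads were deposited as a percent of input reads. Genes absent from the EV table were set to 0, and all 27 members with a summed count were listed there. The summed table is named as sense counts and the EV table names no strand, so EV shares would be affected if strands were handled differently.

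Symbols came from a table of Ensembl identifiers. The 92 members, the 7 pathway lists and the 7 marker lists were chosen with earlier results of these data known. The text names the 25 members with the highest mean of the sums, every member with an EV count, and the top 2 of each role and list; others serve as examples of genes at 0 or were named after their values were seen. Of the remaining markers, 1 of 6 hepatocyte genes and 1 of 5 neutrophil and monocyte genes had a count in each sum. Lymphocyte genes had one in 2 and 1 of 5.

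Shares and intervals were computed with Python 3.11.15, pandas 2.3.3 and scipy 1.17.1, and tested on simulated data. No test between fractions was run, since counts per gene in the lipoprotein and protein fractions were not analysed here. Exact intervals for shares of genes served only to judge alternatives. Sequences of the members were not used here.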

Additional observations from a re-analysis of the deposited data

How the results depend on the processing

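Of 58 alternative values, 34 stayed within the main value's interval or SD, 22 moved and 2 changed sign. Some of the 34 could not have moved. A value from 1 animal always lies within the SD of 2 animals. Leaving out members with an EV count above the sum changed nothing, since no member had one. Genes detected in the sums dropped from 21.7% to 5.43% at 3 counts and 1.09% at 10 in A, and from 25% to 4.35% and 1.09% in B. The excess over genes with a symbol, 8.49 points in A and 14.5 in B, was 0.0905 points in A at 10 counts, and 1.73 points at 3 counts and 0.264 at 10 in B. Against symbols used once, a background chosen after seeing the data, it was 4 and 11 points. In EV library A, members less genes with a symbol was -0.782 points, 0.458 at 3 counts, and 0.167 after thinning to the depth of B. In EV library B, 1.09% of members had 3 counts or more. The share of summed counts in A was 0.0653% without SMOC1 (the same without SMOC1 and GDF6) and 0.043% without the top 3; in B it was 0.0587% without the top 3. Over counts of named genes it was 0.171% and 0.18%, and without the 10 leading features 0.313% and 0.397%. The EV share of the members' sums was 2.44% in A and 9.3% in B without the member with most EV counts, or without both. Without that member the share of EV counts was 0.00962% in A and 0.141% in B. Leaving out 1 animal gave 29.1% to 36.5% for the mean EV share of 32.8%, and 0.221% to 0.563% for the mean share of EV counts of 0.392%. A background of genes with a RefSeq protein was not run. No paired analysis was possible because counts per gene of the lipoprotein and protein fractions were not analysed here, and the sums hold unstated libraries.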
